A study of Mus musculus with 9 samples.

Results

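Zinc finger proteins with a Zfp symbol were followed across 9 kidney RNA-seq libraries of mice given AngII (angiotensin II, the pressor peptide of the renin system). The deposited table listed 32593 genes, of which 404 had a symbol that starts with Zfp and a number. A gene was taken when its FPKM (fragments per kilobase of transcript, scaled to library size) was at least 1 in 3 or more libraries, and 230 Zfp genes met this. Zfp genes that start between 62 and 76 Mb of chromosome 13 were left out except Zfp429, as was a stretch of chromosome 18 that held no Zfp gene over the limit. This removed 12 genes, all on chromosome 13, and left 218. The other 174 Zfp genes of the table were under the FPKM limit. Since the FPKM values chose the genes, and Zfp429 was added for its pattern over the libraries, those levels are a description.

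The study compared 3 groups of 3 libraries, all from AngII-treated kidneys. GRPR-AngII mice had the genotype CDH16 Cre+/GRPRfl/fl, CDH16KO-AngII mice had CDH16 Cre+/Tmemfl/fl, and AngII mice had Tmemfl/fl without Cre. Cdh16 (kidney-specific cadherin) is a gene of tubule epithelium, so a Cre under its promoter is expected to act in tubule cells and not in the other cells of the organ. All 3 groups carried a floxed allele and all received AngII, and the floxed allele of the GRPR-AngII group differs from that of the AngII group. No GRPRfl/fl group without Cre and no group without AngII is analysed here. Separate animals are not stated in the labels, and a p-value here reflects only how far libraries of a group differ, which may be technical. Library totals ran from 40731748 to 60449117 counts, mitochondria-coded genes took 16.1% to 26.4% of them, and all 10 markers of kidney epithelium were detected at an FPKM of at least 1 in every group.

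Most proteins with a Zfp symbol carry tandem C2H2 fingers, small loops held by a zinc ion that each read a few bases of DNA. Many of them also carry a KRAB domain, which recruits the corepressor Trim28 and with it histone methylation by Setdb1, and KRAB zinc finger proteins are known for silencing retroelements and for guarding imprints. The genes arose by repeated duplication, lie in clusters, and differ in sequence and copy number between mouse strains. Other Zfp symbols belong to proteins of different kinds, such as the CCCH proteins of the Zfp36 family, which bind AU-rich messages and promote their decay.

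The largest differences between libraries were in 7 genes, which were at an FPKM of 0.25 or less in at least 1 library and at least 4 times higher in another. Under the stricter rule for an on-off gene (highest library at an FPKM of at least 1, lowest at 0.1 or less, at least 10-fold apart) 2 of the 218 genes qualified, Zfp429 and Zfp952. That was 0.917% of the Zfp genes, and 125 of the 12507 genes that met the FPKM limit did so, or 0.999%. Zfp429 was added for this pattern, so its place in the count was fixed beforehand, and only Zfp952 qualified apart from it. The wider limits were set after the values had been seen. They took Zfp160, Zfp235, Zfp398, Zfp568 and Zfp931 as well. With Zfp429 counted again, this made 3.21% of the Zfp genes, against 1.99% of all tested genes. The 7 genes fell into 3 kinds by which libraries were low: a whole group (Zfp429), a single library (5 genes), and several libraries of more than 1 group, in steps (Zfp235).

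**Figure D1:**
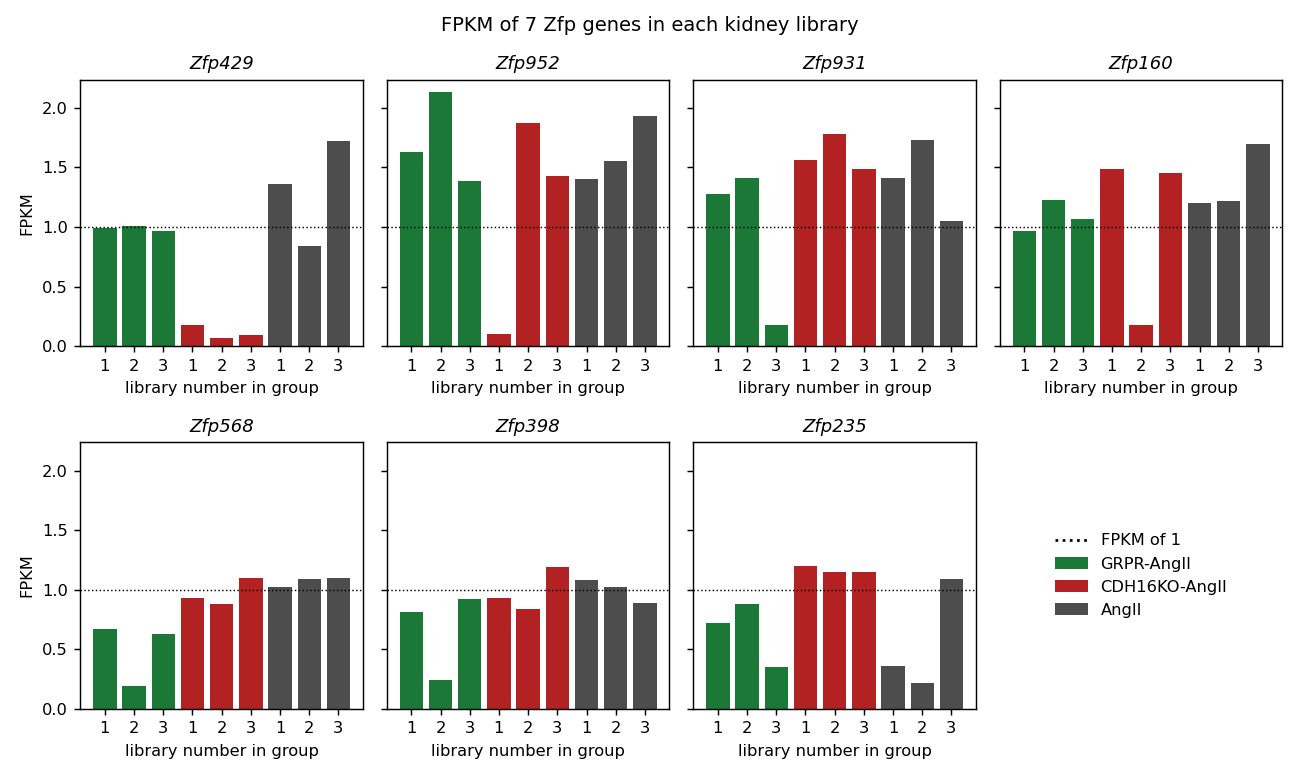
FPKM (vertical axis) of 7 Zfp genes in each library, with the 3 libraries of GRPR-AngII, CDH16KO-AngII and AngII side by side in each panel and 1 bar for 1 library. Zfp429 is at 0.18 or less in all 3 CDH16KO-AngII libraries, Zfp952, Zfp931, Zfp160, Zfp568 and Zfp398 each have 1 low library, and Zfp235 runs in steps between 0.22 and 1.20.

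Zfp429, a KRAB zinc finger gene at chr13:67387905-67399819 on the minus strand (GRCm38), was low in 1 whole group. The open reading frame of its longest coding transcript in GENCODE M21 held 10 C2H2 motifs and a stretch that resembles the KRAB A box. Its FPKM was 0.99, 1.01 and 0.97 in the GRPR-AngII libraries, 0.18, 0.07 and 0.09 in the CDH16KO-AngII libraries, and 1.36, 0.84 and 1.72 in the AngII libraries. Every CDH16KO-AngII library was below every library of the other groups, while the GRPR-AngII values lay inside the AngII range. Zfp429 lies in the stretch of chromosome 13 whose other genes were left out, so whether its neighbours share the pattern is not described here.

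The counts behind these values were small in the low group but not at the floor. Zfp429 had 139, 170 and 135 counts in the GRPR-AngII libraries, 27, 12 and 13 in the CDH16KO-AngII libraries, and 217, 122 and 200 in the AngII libraries. An exact Poisson interval of 95%, which covers counting error only, reached from 17.8 to 39.3 for the 27 counts of CDH16KO-AngII library 1. All 3 low counts were above the floor of 3 counts. In CPM (counts scaled to 1000000 a library after TMM scaling) the group means were 2.86 ± 0.16 in GRPR-AngII, 0.334 ± 0.16 in CDH16KO-AngII and 3.57 ± 1.2 in AngII (SD, n = 3 each). The mean of GRPR-AngII was 8.54 times that of CDH16KO-AngII, and the mean of AngII was 10.7 times that of CDH16KO-AngII. In the fit over all genes the log2 fold change of Zfp429 was -3.41 (SE 0.40) for CDH16KO-AngII against AngII, -0.32 (SE 0.35) for GRPR-AngII against AngII and 3.09 (SE 0.40) for GRPR-AngII against CDH16KO-AngII. These 3 values share libraries. In bulk kidney RNA fewer cells of a type and less RNA per cell cannot be told apart, and this holds for every gene described here.

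A nearly identical copy could move reads between genes, so the transcripts were searched for shared sequence. Zfp429 shared 13.1% of its longest transcript, at 95% identity or more, with other genes, chiefly with the KRAB zinc finger gene Rsl1. An antisense gene, Gm48900, overlaps Zfp429 and had at most 2 counts in any library.

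The 5 genes of the table whose log2(FPKM + 1) followed that of Zfp429 most closely over the 9 libraries were Vnn1, Cyp2d12, Angptl4, Gm42397 and Acot2, with Pearson correlations of 0.952, 0.944, 0.937, 0.934 and 0.934 among 13694 candidates. These coefficients are descriptions over 9 points that share depth and tissue composition, and come from a search for the highest values. Vnn1, a pantetheinase, had an FPKM of 30.3, 36.0 and 36.6 in the GRPR-AngII libraries, 14.9, 12.3 and 8.33 in the CDH16KO-AngII libraries, and 34.4, 30.1 and 42.1 in the AngII libraries. Angptl4, a secreted inhibitor of lipoprotein lipase, had 28.3, 16.1 and 18.6 in GRPR-AngII, 7.07, 3.32 and 3.89 in CDH16KO-AngII, and 21.5, 10.8 and 24.9 in AngII. Both were lowest in the 3 CDH16KO-AngII libraries, but neither came near 0 there. Gm42397 was the only one of the 5 with FPKM values near those of Zfp429, at 1.07, 1.24 and 1.36 in GRPR-AngII, 0.45, 0.10 and 0.09 in CDH16KO-AngII, and 1.44, 1.22 and 1.25 in AngII. Cyp2d12, a cytochrome P450 gene, and Acot2, a mitochondrial acyl-CoA thioesterase gene, had their lowest 3 values in CDH16KO-AngII too.

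Zfp952, a KRAB zinc finger gene at chr17:32993129-33005457 on the plus strand with 9 C2H2 motifs, was low in a single library. Its FPKM was 1.63, 2.13 and 1.39 in the GRPR-AngII libraries, 0.10, 1.87 and 1.43 in the CDH16KO-AngII libraries, and 1.40, 1.55 and 1.93 in the AngII libraries. CDH16KO-AngII library 1 stood alone: it held 29 counts (95% Poisson interval 19.4 to 41.6), and the other 8 libraries held 363 to 667. CDH16KO-AngII libraries 2 and 3 had values like those of AngII. With library 1 included, the log2 fold change for CDH16KO-AngII against AngII was -0.48 (SE 0.66), or 0.06 without that library.

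Zfp160 and Zfp931 had the same shape in other libraries. Zfp160, a KRAB zinc finger gene at chr17:21008903-21043070 on the plus strand with 18 C2H2 motifs, had an FPKM of 0.97, 1.23 and 1.07 in the GRPR-AngII libraries, 1.49, 0.18 and 1.45 in the CDH16KO-AngII libraries, and 1.20, 1.22 and 1.70 in the AngII libraries. The low value was in CDH16KO-AngII library 2, with 84 counts, where the other 8 libraries had 421 to 679. Zfp931, at chr2:178067695-178078476 on the minus strand with 7 C2H2 motifs and no KRAB-like stretch found, had an FPKM of 1.28, 1.41 and 0.18 in GRPR-AngII, 1.56, 1.78 and 1.49 in CDH16KO-AngII, and 1.41, 1.73 and 1.05 in AngII. GRPR-AngII library 3 held 25 counts of it, and the other 8 libraries held 121 to 271. Zfp931 values are uncertain, since 84.9% of its longest transcript was shared with other genes, 73.7% of it with Gm4724. Gm4724 had 24 counts in GRPR-AngII library 3 and 10 to 81 in the other 8 libraries. Whether reads moved between Zfp931 and the genes that share its sequence was not tested.

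Zfp568 and Zfp398 were both lowest in GRPR-AngII library 2. Zfp568 is a KRAB zinc finger gene at chr7:29983955-30028282, known in mouse for repressing a placental Igf2 transcript. Its FPKM was 0.67, 0.19 and 0.63 in the GRPR-AngII libraries, 0.93, 0.88 and 1.10 in the CDH16KO-AngII libraries, and 1.02, 1.09 and 1.10 in the AngII libraries. All 3 GRPR-AngII libraries lay below all 6 others, with library 2 far under the other 2 of its group. Zfp398, at chr6:47835661-47867688, had 0.81, 0.24 and 0.92 in GRPR-AngII, 0.93, 0.84 and 1.19 in CDH16KO-AngII, and 1.08, 1.02 and 0.89 in AngII. Outside GRPR-AngII library 2, the groups overlapped for Zfp398.

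Zfp235, a KRAB zinc finger gene at chr7:24134169-24143241, showed steps rather than an on-off split. Its FPKM was 0.72, 0.88 and 0.35 in the GRPR-AngII libraries, 1.20, 1.15 and 1.15 in the CDH16KO-AngII libraries, and 0.36, 0.22 and 1.09 in the AngII libraries. The CDH16KO-AngII libraries lay close together and above all others, and the AngII libraries were spread over most of the range. The log2 fold change for CDH16KO-AngII against AngII was 1.12 (SE 0.50, adjusted p = 0.588 by edgeR's quasi-likelihood test). It was 2.01 without AngII library 3 and 0.74 without AngII library 2.

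Promoters are shown for the 2 on-off genes and for the 2 single-library genes with the next largest range, so that their start regions can be compared. Each run is 5′ to 3′ on the gene's strand and reaches from 250 bases before to 50 bases after a start site, taken from RefSeq on GRCm38.p6, with the dinucleotide CG in capitals. The regions are chr13:67399718-67400017 (minus strand) for Zfp429, chr17:32992889-32993188 (plus strand) for Zfp952, chr2:178078376-178078675 (minus strand) for Zfp931 and chr17:21008691-21008990 (plus strand) for Zfp160.
Zfp429: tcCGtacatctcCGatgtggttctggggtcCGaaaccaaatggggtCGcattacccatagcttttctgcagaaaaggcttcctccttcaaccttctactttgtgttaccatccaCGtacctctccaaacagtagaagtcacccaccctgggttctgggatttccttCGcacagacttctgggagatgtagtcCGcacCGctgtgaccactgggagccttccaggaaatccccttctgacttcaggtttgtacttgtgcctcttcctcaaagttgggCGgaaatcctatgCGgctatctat
Zfp952: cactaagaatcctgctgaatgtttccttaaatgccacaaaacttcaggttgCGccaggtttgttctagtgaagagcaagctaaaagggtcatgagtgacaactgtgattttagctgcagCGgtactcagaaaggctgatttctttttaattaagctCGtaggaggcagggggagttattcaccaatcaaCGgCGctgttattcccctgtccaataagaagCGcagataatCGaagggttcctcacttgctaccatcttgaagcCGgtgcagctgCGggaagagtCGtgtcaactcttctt
Zfp931: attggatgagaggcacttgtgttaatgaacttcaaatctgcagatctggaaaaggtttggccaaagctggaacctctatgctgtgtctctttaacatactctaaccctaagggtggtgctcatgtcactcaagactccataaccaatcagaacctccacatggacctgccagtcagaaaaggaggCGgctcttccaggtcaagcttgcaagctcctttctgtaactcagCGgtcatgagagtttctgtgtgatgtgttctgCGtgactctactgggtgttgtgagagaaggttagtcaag
Zfp160: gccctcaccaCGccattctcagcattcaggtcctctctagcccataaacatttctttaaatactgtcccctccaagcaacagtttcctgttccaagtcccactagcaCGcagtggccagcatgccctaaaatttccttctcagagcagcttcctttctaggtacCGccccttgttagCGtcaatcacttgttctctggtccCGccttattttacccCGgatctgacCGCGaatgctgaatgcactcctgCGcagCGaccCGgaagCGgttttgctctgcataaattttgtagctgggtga
The promoters of Zfp429 and Zfp952 held 10 CG each, that of Zfp160 held 12 and that of Zfp931 held 3. Among all 32851 RefSeq promoters of this length the median was 7, and 43.5%, 39.6% and 76.7% had at least 10, 12 and 3 CG. Of the 218 Zfp genes 183 had an entry, and their 223 promoters had a median of 17 CG, so all 4 lay under the median of the Zfp genes. None of the 4 held TATAAA on either strand, which 13.6% of all promoters and 5.38% of the Zfp promoters did.

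A gene low in a single library could lie in a low stretch of the chromosome, so the neighbours were read in the same library. Ratios here are FPKM + 0.1 in the low library over the median of FPKM in the other 8 plus 0.1, on a log2 scale. Zfp952 had a ratio of -3.08, while the 40 tested genes within 1 Mb had a median of 0.07, and 1 of them, Angptl4 at 781 kb, was under -1. Angptl4 was low in the whole group, with 7.07 FPKM in CDH16KO-AngII library 1 and 3.32 and 3.89 in libraries 2 and 3. Zfp160 had -2.24 and its 11 tested neighbours lay between -0.44 and 0.32. Zfp931 had -2.47 and its 6 tested neighbours lay between -0.71 and 0.20, with a median of -0.52. Zfp568 had -1.89, and its 51 neighbours had a median of -0.03. A row of Tmem147os, at -2.68, was the 1 neighbour under -1, while another row of the same gene had 0.24. Gm21982, at 2.52, was the 1 neighbour above 1. Zfp398 had -1.59 and none of its 26 neighbours was under -1. Most tested neighbours were thus near their usual level in the library where the Zfp gene was low, and those of Zfp931 were somewhat under it.

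Closer neighbours under the FPKM limit were read in CPM, for rows within 100 kb with a median of at least 20 counts. Near Zfp952, Zfp472 and Zfp763 had 3.91 and 4.53 CPM in CDH16KO-AngII library 1, and in the other 8 libraries 2.41 to 3.82 and 2.51 to 5.47 CPM. Both of these closest zinc finger neighbours were as high there as elsewhere. Near Zfp568, a pair of rows was low in the same library: Zfp74, which starts 53 kb before it, had 1.14 CPM (71 counts) in GRPR-AngII library 2, against 3.94 to 6.96 CPM (173 to 344 counts) in the other 8 libraries. Zfp82, which starts 71 kb after it, had 0.499 CPM there (31 counts), against 0.762 to 2.62 CPM elsewhere. Zfp14 and Zfp383, also within 100 kb of Zfp568, had 3.96 and 4.83 CPM in that library, inside their ranges elsewhere of 3.40 to 8.15 and 3.26 to 6.99 CPM. Zfp74 and Zfp82 were picked out after their values had been seen.

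**Figure D2:**
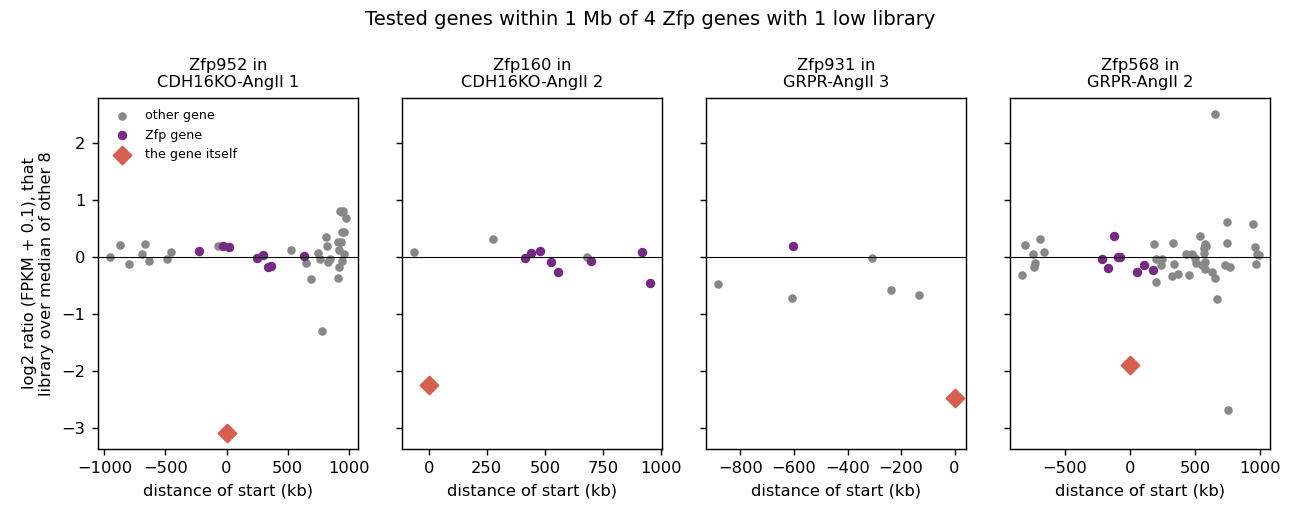
Each tested gene within 1 Mb (points, distance between starts in kb on the horizontal axis) of 4 Zfp genes that were low in 1 library, with the log2 ratio of that library to the median of the other 8 on the vertical axis. The diamonds (the Zfp gene itself) lie between -1.89 and -3.08, and nearly all neighbours lie around 0.

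A single low library was defined as a lowest FPKM at least 3 times under the second lowest, with the second lowest at 0.5 or more. By this definition, set after the values had been seen, 5 Zfp genes had one, or 2.29% of the 218, and 111 of all tested genes did, or 0.888%. For the Zfp genes 2 of the low libraries were GRPR-AngII library 2, and GRPR-AngII library 3, CDH16KO-AngII library 1 and CDH16KO-AngII library 2 had 1 each. No AngII library was the low one for a Zfp gene, while over all tested genes the AngII libraries were the low ones for 22, 7 and 12 genes. A table of 5 genes does not test how the low libraries fall among the groups.

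Apart from these 7 genes the Zfp genes varied little between libraries. The ratio of the highest to the lowest FPKM had a median of 1.65 over the 218 genes and of 1.76 over all tested genes. It was under 2 for 172 Zfp genes (78.9%), against 65.4% of all tested genes, and 4 or more for 7 (3.21%), against 7.25%. The 7 were the genes described above, among them Zfp429, which was chosen for its pattern. All of them had low levels, with means between 0.791 and 1.49 FPKM.

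**Figure D3:**
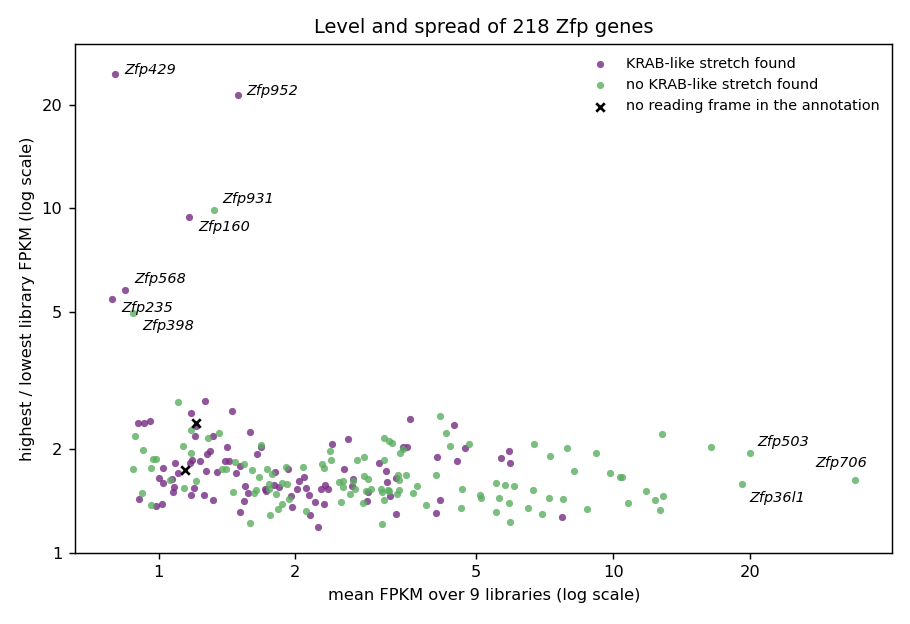
Each point is 1 of 218 Zfp genes, by its mean FPKM over 9 libraries (horizontal, log scale) and the ratio of its highest to its lowest library (vertical, log scale), coloured by whether a KRAB-like stretch was found. The 7 genes with a ratio of 4 or more stand apart at the low end of the level axis, and no gene with a KRAB-like stretch exceeds a mean of 7.72 FPKM.

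The levels were low. The median of the mean FPKM was 2.22 for the Zfp genes and 4.29 for all tested genes, and 118 Zfp genes had a mean of 2 or more and 12 a mean of 10 or more. Of the 218 genes 161 had an FPKM of at least 1 in all 9 libraries, 57 in 3 to 8 libraries and 11 of these in exactly 3. No Zfp gene met the limit through libraries of a single group, and 14 were below 1 in every library of some group. Just inside the limit, the third-highest FPKM was 1 for Zfp451 and Zfp81, 1.01 for Zfp429 and Zfp60, and 1.02 for Zfp398. Just outside, it was 0.99 for Zfp119a, 0.98 for Zfp30, 0.97 for Zfp90 and Zfp983, and 0.96 for Zfp125.

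None of the 5 highest had a KRAB-like stretch. Zfp706, a short protein with 1 C2H2 motif, led with a mean of 34.1 FPKM. It had 36.7, 37.6 and 28.3 in the GRPR-AngII libraries, 27.2, 41.6 and 25.6 in the CDH16KO-AngII libraries, and 31.2, 41.0 and 37.5 in the AngII libraries, with wide overlap. Zfp503, a transcriptional corepressor of developing tissues, averaged 17.0 ± 3.9 FPKM in GRPR-AngII, 19.4 ± 2.9 in CDH16KO-AngII and 23.6 ± 1.1 in AngII (SD, n = 3 each). Zfp36l1, a CCCH protein that promotes decay of AU-rich messages, averaged 17.5 ± 4.1, 19.1 ± 1.8 and 21.1 ± 3.1 in the same 3 groups. More than 50% of its longest transcript, 56.1%, was shared with Gm26669, a gene that overlaps it on the opposite strand. Whether counting used strand is not given, so its level is uncertain. Zfp692, a target of AMP-activated kinase, and Zfp598, the ubiquitin ligase that marks collided ribosomes, had means of 16.4 and 12.9 FPKM over the 9 libraries.

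A KRAB-like stretch was found in 94 of the 216 genes with an open reading frame, and the search can miss diverged ones. These 94 had a median of 12 C2H2 motifs and a median FPKM of 1.66, and the other 122 had 7 motifs and 2.91 FPKM. None of the 94 had a mean of 10 FPKM or more, while 12 of the 122 did. In 9 genes no C2H2 motif was found, among them Zfp36, Zfp36l1 and Zfp36l2, which have 2 CCCH fingers each. The 2 genes with no frame were Zfp335os, an antisense RNA, and Zfp862-ps, a pseudogene. Of the 7 genes with large ratios, 5 had a KRAB-like stretch.

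The genes were not spread evenly over the genome. Chromosome 7 held 53 of them (24.3%, against 7.53% of all tested genes) and chromosome 17 held 34 (15.6%, against 5.06%), of which 28 had a KRAB-like stretch. Taking runs of at least 4 Zfp genes with gaps of at most 200 kb, there were 9 clusters with 50 of the genes. The largest run, on chromosome 7 from 29768552 to 30169727, held 9 genes, including Zfp568, Zfp14 and Zfp146, and their median level was 1.32 FPKM. Zfp398 and Zfp235 lay in clusters as well, with 6 and 5 genes.

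CDH16KO-AngII against AngII compares the Tmem floxed line with and without CDH16 Cre. Presence of the Cre and deletion of the floxed allele cannot be told apart in it. In that comparison 1 of 218 Zfp genes passed an adjusted p of 0.05 (edgeR's quasi-likelihood test, Benjamini-Hochberg over all 12507 tested genes), which was Zfp429, and 0.168% of all tested genes did. Since Zfp429 was chosen for this pattern, nothing is read from its call. Of the other 217 genes 0 passed with edgeR, DESeq2 or limma on log2(FPKM + 1), and 19 had an unadjusted p under 0.05. With Zfp429 these made 9.17% of the Zfp genes, where 8.45% of all tested genes had one. Without AngII library 1 or without CDH16KO-AngII library 3, Zfp429 did not pass the adjusted threshold by edgeR either, so 0 of the 218 did. The smallest adjusted p among the others was 0.334, for Zfp444.

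After Zfp429, the largest log2 fold changes were those of Zfp235 (1.12, above) and Zfp61, a gene of the same cluster, with 0.76 (SE 0.33, adjusted p = 0.582). Zfp61, picked after its values had been seen, had 1.35, 0.94 and 1.71 FPKM in the GRPR-AngII libraries, 1.61, 1.21 and 1.79 in the CDH16KO-AngII libraries, and 1.20, 0.92 and 0.65 in the AngII libraries. The smallest p after that of Zfp429 belonged to Zfp444. Zfp444, a C2H2 factor with 4 fingers, had 11.3, 9.06 and 10.6 FPKM in the GRPR-AngII libraries, 10.2, 11.0 and 12.2 in the CDH16KO-AngII libraries, and 7.19, 7.91 and 9.08 in the AngII libraries. Its CDH16KO-AngII libraries lay above all AngII libraries, with a log2 fold change of 0.51 (SE 0.15). Zfp14, in the chromosome 7 run, had a log2 fold change of 0.73 (SE 0.24, adjusted p = 0.428), and Zfp707 had 0.59 (SE 0.21, adjusted p = 0.468). In the other direction Zfp609, a cofactor that binds the cohesin loader in neural progenitors, had -0.49 (SE 0.20, adjusted p = 0.568), and Zfp810 had -0.55 (SE 0.23, adjusted p = 0.565). Zfp609 had -0.27 without AngII library 1, and Zfp810 had -0.18 without AngII library 2, where its FPKM was 6.61 against 3.19 and 3.78 in the other AngII libraries. None of these genes passed the threshold.

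Counted over all 218 genes, more were higher than lower in CDH16KO-AngII against AngII as groups, which did not hold for every library (below). The ranges in CPM did not overlap for 22 genes that were higher in CDH16KO-AngII and 7 that were lower, which is 10.1% and 3.21% of the Zfp genes, and for 6.65% and 5.5% of all tested genes. At an unadjusted p of 0.05, 17 were higher and 3 lower (7.80% and 1.38%), and 4.69% and 3.76% of all tested genes were. A positive log2 fold change was found for 152 genes (69.7%), and for 51.9% of all tested genes. The median log2 fold change was 0.12 for the Zfp genes and 0.01 for all tested genes, with 0.16 for the 94 KRAB-like genes and 0.08 for the other 122.

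This shift was small and differed between the CDH16KO-AngII libraries. The median difference of the 218 genes from their own medians over the 9 libraries, in log2(CPM + 0.5), was 0.08, -0.05 and 0.17 in CDH16KO-AngII libraries 1, 2 and 3, and -0.03, -0.03 and 0.00 in AngII libraries 1, 2 and 3. CDH16KO-AngII library 2 thus lay under every AngII library. In the same libraries mitochondria-coded genes took 23.4%, 16.1% and 26.4% of the counts in CDH16KO-AngII and 21.5%, 17.2% and 17.4% in AngII, so the order within CDH16KO-AngII was that of the mitochondrial share. GRPR-AngII library 3 had a mitochondrial share of 24.6% and a median difference of 0.01. Summed FPKM over 9 proximal tubule markers ran from 1970.66 to 2701.93 in CDH16KO-AngII and from 2704.91 to 2802.68 in AngII, with all 9 detected. The mean log2 CPM of endothelial markers was 5.49, 5.03 and 5.57 in CDH16KO-AngII libraries 1, 2 and 3. That of stromal markers was 4.26, 4.02 and 4.82, and that of immune markers (4 of 8 listed) 3.43, 2.99 and 3.76. These 3 sets had the same order as the mitochondrial share. Proximal tubule markers had the reverse order, at 8.97, 9.41 and 8.93, and kidney markers had neither, at 9.13, 8.78 and 8.90. In AngII libraries 1, 2 and 3 the values were 5.56, 5.25 and 5.08 for endothelial, 4.35, 3.70 and 4.59 for stromal and 3.49, 3.24 and 3.97 for immune markers. They were 9.46, 9.38 and 9.11 for proximal tubule and 9.13, 9.08 and 8.79 for kidney markers. The part of these in the shift was not tested. Without CDH16KO-AngII library 3 the median log2 fold change was 0.05 and 136 genes were positive. Without CDH16KO-AngII library 1 they were 0.11 and 146, near the values with all libraries, and without CDH16KO-AngII library 2 they were 0.17 and 164.

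**Figure D4:**
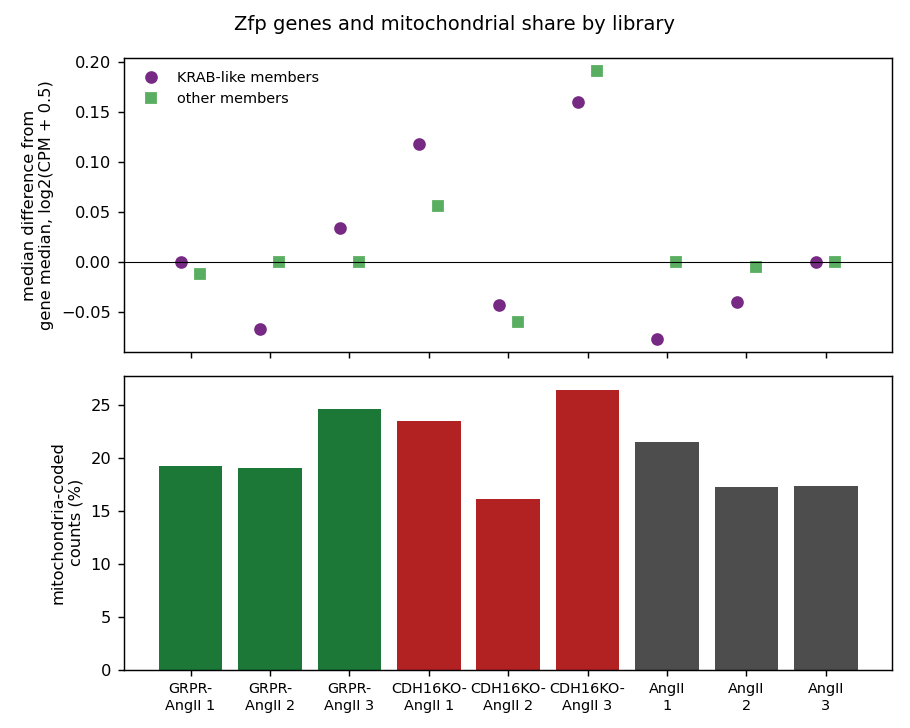
Upper plot, for each library, the median difference of KRAB-like (circles) and other (squares) Zfp genes from each gene's median over 9 libraries, in log2(CPM + 0.5). Lower plot, the share of counts from mitochondria-coded genes in percent; CDH16KO-AngII library 3 is highest in both, at 26.4% of counts.

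GRPR-AngII against AngII combines a Cre with another floxed allele. Here 0 of 218 Zfp genes passed the same threshold with edgeR, as did 0% of all tested genes, and the smallest adjusted p was 0.685, for Zfp101. At an unadjusted p of 0.05 there were 14 Zfp genes (6.42%, beside 6.74% of all tested genes), 8 higher (3.67%, beside 3.5% of all tested genes) and 6 lower (2.75%, beside 3.24%). DESeq2 and limma on log2(FPKM + 1) called 0 Zfp genes as well. The medians were 0.00 for the Zfp genes and -0.01 for all tested genes, 111 genes were positive (50.9%, beside 49% of all tested genes), and ranges did not overlap for 11 higher and 13 lower genes (5.05% and 5.96%, against 6.85% and 7.2% of all tested genes). These shares were near those of all genes, and with limma the median was -0.05, where that of all tested genes was -0.06.

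The Zfp genes with the smallest p in GRPR-AngII against AngII did not pass the threshold. Zfp101, a KRAB gene of a chromosome 17 cluster, had 2.33, 2.15 and 2.19 FPKM in the GRPR-AngII libraries and 1.33, 1.57 and 1.99 in the AngII libraries, with a log2 fold change of 0.53 (SE 0.16). Zfp143, an activator that binds many promoters of housekeeping genes, had 1.84, 2.49 and 1.89 in GRPR-AngII and 1.47, 1.47 and 1.55 in AngII, at 0.54 (SE 0.18). Neither pair of ranges overlapped. Zfp568 had the most negative value of the family, -1.01 (SE 0.40, adjusted p = 0.732; -0.60 without GRPR-AngII library 2), and Zfp503 had -0.41 (SE 0.16, adjusted p = 0.732). Zfp969, with 0.65 (SE 0.23), shares its whole longest transcript with Zfp966 at 95% identity or more, so its values are uncertain.

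GRPR-AngII against CDH16KO-AngII sets the 2 Cre-bearing groups side by side. Zfp429 was the 1 of 218 Zfp genes past the threshold, beside 0.144% of all tested genes, and again nothing is read from it. The count was 0 without any 1 of the GRPR-AngII libraries and without CDH16KO-AngII library 3. The smallest adjusted p among the other 217 was 0.426, for Zfp322a. At an unadjusted p of 0.05 there were 1 higher gene, which was Zfp429, and 5 lower genes (2.29%), beside 3.03% and 3.21% of all tested genes, or 2.75% of the Zfp genes beside 6.24% in both directions. Ranges did not overlap for 2 higher and 14 lower genes (0.917% and 6.42%, beside 4.66% and 5.3%), 66 genes had a positive log2 fold change (30.3%, beside 47.4%), and the median was -0.11, where that of all tested genes was -0.01. Without CDH16KO-AngII library 3 the median was -0.04 with 93 positive genes, and without CDH16KO-AngII library 2 it was -0.19 with 51.

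Zfp322a, on chromosome 13 from 23353103 to 23369208, had 1.71, 1.66 and 1.45 FPKM in the GRPR-AngII libraries, 2.31, 2.21 and 2.16 in the CDH16KO-AngII libraries and 1.67, 1.94 and 1.73 in the AngII libraries. All 3 CDH16KO-AngII libraries were above all others, and the log2 fold change for GRPR-AngII against CDH16KO-AngII was -0.43 (SE 0.13). Zfp568 had -0.91 (SE 0.40, adjusted p = 0.766), or -0.51 without GRPR-AngII library 2, and Zfp623 had -0.31 (SE 0.13, adjusted p = 0.717). The shared AngII and CDH16KO-AngII libraries tie the 3 comparisons to each other.

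**Figure D5:**
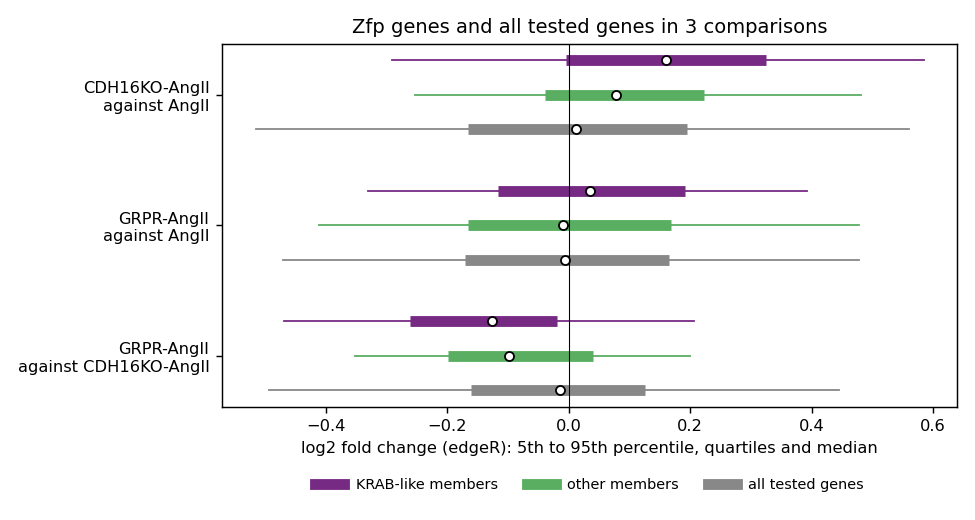
Log2 fold changes (edgeR) of 93 KRAB-like Zfp genes without Zfp429, 122 other Zfp genes and 12507 tested genes in 3 comparisons; thin lines run from the 5th to the 95th percentile, thick bars between the quartiles, and circles mark the median. The Zfp medians lie above 0 in CDH16KO-AngII against AngII (0.16 and 0.08), near 0 in GRPR-AngII against AngII, and below 0 in GRPR-AngII against CDH16KO-AngII (both near -0.1).

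Grouped by role, 0 Zfp genes of any list passed the threshold by edgeR, DESeq2 or limma on log2(FPKM + 1) (Zfp429 is in none of the lists). At an unadjusted p of 0.05 by edgeR there were 1 in CDH16KO-AngII against AngII (Zfp410), 4 in GRPR-AngII against AngII (Zfp143, Zfp335, Zfp503 and Zfp568) and 1 in GRPR-AngII against CDH16KO-AngII (Zfp568). Of the 35 tested genes of these lists that was 2.86%, 11.4% and 2.86%, where all tested genes had 8.45%, 6.74% and 6.24%. The 3 CCCH genes Zfp36, Zfp36l1 and Zfp36l2 had median log2 fold changes of -0.10, -0.02 and 0.12 in CDH16KO-AngII against AngII, GRPR-AngII against AngII and GRPR-AngII against CDH16KO-AngII. Zfp36, whose own message is an early response gene, had 12.3, 6.91 and 6.73 FPKM in the GRPR-AngII libraries, 8.24, 7.33 and 8.53 in CDH16KO-AngII, and 7.62, 7.48 and 6.11 in AngII, with 1 high GRPR-AngII library. The 11 genes of RNA and ribosome handling had medians of 0.10, 0.07 and 0.01 in the same 3 comparisons, and lay between -0.22 and 0.27. The 10 tested of 12 transcription factors with known targets had medians of 0.11, 0.09 and -0.01.

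Among those factors Zfp335, a regulator needed for T cell maturation in mouse, had the largest value, 0.61 (SE 0.22, adjusted p = 0.732) for GRPR-AngII over AngII libraries. It overlaps Zfp335os on the other strand, and no source used here says whether counting used strand. Zfp410, known as an activator of Chd4, had 0.37 (SE 0.16, adjusted p = 0.588) in CDH16KO-AngII against AngII. Its target Chd4 had 20.3, 20.8 and 23.0 FPKM in the GRPR-AngII libraries, 23.9, 21.9 and 25.7 in the CDH16KO-AngII libraries, and 20.4, 19.6 and 25.1 in the AngII libraries, with overlap between all groups.

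Of 7 genes listed for control of imprints and retroelements, 4 were tested. Zfp445, a guardian of imprinting marks, had a mean of 7.72 FPKM, the highest of the KRAB-like genes, and lay between 6.72 and 8.56 in all 9 libraries. Zfp809, which silences proviral DNA of murine leukaemia virus, averaged 3.61 ± 0.99 FPKM in GRPR-AngII, 3.07 ± 0.22 in CDH16KO-AngII and 3.31 ± 0.07 in AngII (SD, n = 3 each). Zfp932 had a mean of 5.65 FPKM and shares 77.8% of its longest transcript with Gm15446. Zfp57, the other known guardian of imprints, was under the FPKM limit, with 0.30 to 1.01. Zfp568, of the same list, was the only one of the 4 with a library under 1 FPKM.

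The 4 tested of 9 chromatin complex partners had medians of -0.11, -0.17 and 0.01, and the 3 tested of 5 mesenchymal and adipogenic factors had -0.25, -0.38 and -0.17, in CDH16KO-AngII against AngII, GRPR-AngII against AngII and GRPR-AngII against CDH16KO-AngII. The 3 were Zfp503, Zfp703 and Zfp467, and all were negative in both comparisons with AngII. Their smallest adjusted p was 0.615 in CDH16KO-AngII against AngII and 0.732 in GRPR-AngII against AngII. Zfp703, a corepressor related to Zfp503, had 2.42, 2.82 and 1.76 FPKM in the GRPR-AngII libraries, 1.86, 2.23 and 2.10 in the CDH16KO-AngII libraries, and 2.68, 3.28 and 2.36 in the AngII libraries. Over the 7 tested of 8 listed stromal markers, summed FPKM was 20.95 to 28.6 in GRPR-AngII. It was 20.2 to 32.0 in CDH16KO-AngII and 17.8 to 28.0 in AngII. In these groups 6, 5 and 5 of the 7 markers had an FPKM of at least 1 in every library of the group. Their part in these values was not tested.

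The machinery that KRAB proteins act through was detected in every group. Of 25 listed symbols 22 were tested, and the list held Fam208a beside Tasor, the newer symbol of the same gene. Of the 22, 0 passed the threshold in any comparison by edgeR, DESeq2 or limma on log2(FPKM + 1). At an unadjusted p of 0.05 there were 1 (Hdac1), 4 (Atf7ip, Cbx1, Hdac1 and Morc2a) and 1 (Hdac2) by edgeR in CDH16KO-AngII against AngII, GRPR-AngII against AngII and GRPR-AngII against CDH16KO-AngII. That was 4.55%, 18.2% and 4.55% of the 22, where all tested genes had the shares of 8.45%, 6.74% and 6.24% given above. Trim28, the corepressor that KRAB domains bind, had 11.9, 14.4 and 11.9 FPKM in the GRPR-AngII libraries, 13.5, 12.3 and 14.6 in the CDH16KO-AngII libraries, and 13.1, 12.4 and 14.2 in the AngII libraries. Setdb1, the histone methyltransferase it recruits, lay between 3.50 and 5.16 in all libraries. Hdac1, a histone deacetylase of the same complexes, had 8.26, 8.90 and 7.58 FPKM in GRPR-AngII, 8.31, 7.83 and 6.94 in CDH16KO-AngII, and 10.3, 9.98 and 10.6 in AngII. The AngII libraries were above all others, and the log2 fold change for CDH16KO-AngII against AngII was -0.38 (adjusted p = 0.301). Morc2a, an ATPase of the HUSH silencing pathway, had 4.89, 5.01 and 4.96 in GRPR-AngII and 3.21, 3.64 and 4.46 in AngII, at 0.47 (adjusted p = 0.685).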

How the data were processed

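RNA-seq of kidney total RNA was analysed in 9 libraries, 3 in each of 3 groups named in the sample titles. Per the labels' protocols, the RNeasy mini plus kit of Qiagen and a SMARTER mRNA-Seq kit were used, and the submitters' processing notes name GRCm38 and mm10. Aligner, counter and strand setting: not given in the sources used here. Per the file headers, the authors deposited an FPKM value, rounded to 2 decimals, and a count for every gene and library. The values deposited by the authors as counts were whole numbers and are treated as each gene's expected count, rounded before deposit, which no source used here states. No column was left unused. Depth was 40731748 to 60449117 counts a library, and a count of 0 allows up to 3 counts.

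The 12507 genes over the FPKM limit of 1 in 3 or more libraries were tested with edgeR 4.0.16 in R 4.3.3: TMM scaling, quasi-likelihood test, all 9 libraries in 1 fit, no block, Benjamini-Hochberg adjusted p under 0.05. Standard errors were the size of the fold change divided by the square root of F, and the scripts were tested on simulated data. The fold changes are not tests for Zfp429, which was chosen for its pattern. DESeq2 1.42.0 and limma 3.58.1 on log2(FPKM + 1) and log2(FPKM + 0.1), other filters and scalings, a replicate block and leaving out each library were alternatives. C2H2 (and KRAB-like) motifs were searched in the longest reading frame of GENCODE M21 coding transcripts, where all 218 genes occur and 180 have the same start and end. Shared sequence was searched with BLAST+ 2.17.0 at 95% identity: 17 genes share at least 50% of their longest transcript, and 94 overlap another gene, 75 of them on the opposite strand. The search used both strands, so sequence shared with an overlapping gene is counted as shared too. Figures were drawn with matplotlib 3.10.9.

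Members and lists were chosen with earlier results of these data known. Named genes were Zfp429, on-off genes, called genes, up to 6 higher and 6 lower of smallest p in each comparison, the 5 of highest level, the genes at the edge of the FPKM limit, role-list and corepressor genes, and the 5 genes most like Zfp429. Others named were chosen after their values were seen. The floxed genes are not analysed here.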

Additional observations from a re-analysis of the deposited data

How the results depend on the processing

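Leaving Zfp429 aside, 46 fold changes of the Zfp and corepressor genes with the smallest p in each comparison, none past the threshold, kept their direction and stayed short of it under all 17 alternatives each (782 values). The 46 were picked for small p in these same libraries, which the alternatives use again, so the kept direction is a description and no independent support. Sizes moved: Zfp810 went from -0.55 to -0.18 without AngII library 2 in CDH16KO-AngII against AngII. Some Zfp genes outside the 46 changed direction. For CDH16KO-AngII against AngII, Zfp952 did so without CDH16KO-AngII library 1 (0.06, against -0.48) and Zfp160 without CDH16KO-AngII library 2 (0.17, against -0.34). For GRPR-AngII against AngII, Zfp235 did so without AngII library 2 (-0.09, against 0.29). For GRPR-AngII against CDH16KO-AngII, Zfp296 (0.17, against -0.27) and Zfp574 (0.05, against -0.25) did so without CDH16KO-AngII library 3. Zfp429 was the 1 Zfp gene called, and the counts of 0 Zfp genes below are the settings that ended its call. The counts moved more. DESeq2 called 210 genes for CDH16KO-AngII against AngII, 45 for GRPR-AngII against AngII and 175 for GRPR-AngII against CDH16KO-AngII, where edgeR called 21, 0 and 18. For GRPR-AngII against CDH16KO-AngII edgeR called 41 without a filter and 9 with only the 2 groups in the fit, and the count of Zfp genes, 1, was 0 with only the 2 groups, 0 with limma on log2(FPKM + 1) and 0 on log2(FPKM + 0.1). Leaving out 1 library at a time gave 0 to 42, 0 to 2 and 0 to 50 genes in the 3 comparisons, and 0 to 1 Zfp genes in the first and the last. On-off Zfp genes were 0 at a lowest FPKM of at most 0.05, 1 at a highest FPKM of at least 2, 0 with CPM in place of FPKM, 7 with the wider limits added after seeing the data, and 1 to 2 without 1 library. Fewer libraries enter those last fits; the cause of the other moves was not tested. Same-numbered libraries did not deviate together throughout (correlations of -0.12 to 0.30), so the numbers were not taken as pairs; a replicate block gave 26, 0 and 13 genes and 1, 0 and 1 Zfp genes. Counts were low for Zfp429 in CDH16KO-AngII (27, 12 and 13) and in the low libraries of Zfp952 (29) and Zfp931 (25). The low libraries of Zfp160, Zfp568 and Zfp398 held 84, 101 and 203 counts. For each of these 5 genes 1 library decides the single-library value, and no repeat of those libraries is analysed here.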
